A study of Mus musculus with 6 samples.

Results

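The 1088 entries described here are the rows of a mouse gene table whose symbols name microRNA (miRNA) genes, chosen by symbol (Mir followed by a digit, or Mirlet7) from the 23999 entries of the table. Of these, 1084 are hairpin precursors and 4 are host transcripts that carry precursors (Mir17hg, Mir22hg, Mir143hg and Mirlet7bhg). RNA was sequenced from Lin-Sca1+cKit+ (LSK) bone marrow cells, the fraction of stem and early progenitor cells, sorted from Mirc11-/- mice (3 libraries) and from wildtype mice (3 libraries). All mice were C57BL/6 and 6 to 8 weeks old, without treatment, and each library was made from cells pooled over several mice. Mirc11-/- mice carry a germline deletion of the Mirc11 locus, so the miRNAs were missing from every tissue and not only from the sorted cells. The question was which precursors were read at all, and how the deleted cluster Mir23a, Mir27a and Mir24-2 stood against its paralog cluster Mir23b, Mir27b and Mir24-1 and against the other precursors.

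A miRNA is transcribed as part of a long primary transcript, often the intron or exon of a host gene. The nuclear enzyme Drosha with its partner Dgcr8 cuts out a short hairpin, the precursor, and Dicer1 in the cytoplasm trims it to a mature strand that guides an Argonaute protein to mRNAs, mainly through bases 2 to 8, the seed. The libraries were made from polyadenylated RNA, and neither the cut hairpin nor the mature strand has a poly(A) tail. Values on a precursor entry are therefore counts of reads from longer transcripts that cross the hairpin, not amounts of mature miRNA, and the library kit did not record the strand.

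Mirc11 and its paralog each encode 3 miRNAs in the same order, and their hairpins are shown because the results turn on them. Sequences are from RefSeq (GRCm38.p6), 5′ to 3′, with capitals marking the stretch that matches the seed of miR-23a-3p, miR-27-3p or miR-24-3p. The Mirc11 hairpins lie on chromosome 8, plus strand, at chr8:84208518-84208592, chr8:84208672-84208758 and chr8:84208815-84208921. The paralogs lie on chromosome 13, plus strand, within an intron of 2010111I01Rik, at chr13:63300484-63300557, chr13:63300712-63300784 and chr13:63301208-63301275.
Mir23a: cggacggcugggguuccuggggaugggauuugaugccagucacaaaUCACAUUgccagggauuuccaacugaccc
Mir23b: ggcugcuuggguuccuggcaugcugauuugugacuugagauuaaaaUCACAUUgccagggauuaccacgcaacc
Mir27a: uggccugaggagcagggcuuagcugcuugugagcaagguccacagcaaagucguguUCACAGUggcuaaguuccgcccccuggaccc
Mir27b: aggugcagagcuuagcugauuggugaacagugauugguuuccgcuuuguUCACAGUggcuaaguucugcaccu
Mir24-2: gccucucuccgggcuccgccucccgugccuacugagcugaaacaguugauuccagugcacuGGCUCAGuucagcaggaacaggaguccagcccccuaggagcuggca
Mir24-1: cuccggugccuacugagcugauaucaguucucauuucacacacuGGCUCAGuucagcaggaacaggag

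The mature strands below carry the same seeds in capitals. The seed UCACAGU was shared by miR-27a-3p and miR-27b-3p, and the strand miR-24-3p was annotated on both Mir24-2 and Mir24-1.
miR-23a-3p: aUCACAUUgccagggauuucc
miR-27a-3p: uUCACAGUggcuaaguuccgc
miR-27b-3p: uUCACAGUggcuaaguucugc
miR-24-3p: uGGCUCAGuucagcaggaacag
A further set is shown because 2 more polycistrons are described below. The miR-17 seed AAAGUGC was shared by strands of Mir17 and Mir20a (chromosome 14) and of Mir93 and Mir106b (chromosome 5). The seed AUUGCAC was shared by Mir92-1 (chromosome 14) and Mir25 (chromosome 5).
miR-17-5p: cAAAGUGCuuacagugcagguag
miR-20a-5p: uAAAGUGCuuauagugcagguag
miR-93-5p: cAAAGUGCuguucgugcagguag
miR-106b-5p: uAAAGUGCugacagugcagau
miR-92a-3p: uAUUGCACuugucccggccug
miR-25-3p: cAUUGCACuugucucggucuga

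The libraries held 15029379 to 17051541 reads in genes. Values are normalized counts, that is reads divided by the authors' size factor of the library, so that 1 read was worth 0.946 to 1.04 normalized counts. Precursors took 16838, 15788 and 16770 reads in Mirc11-/- libraries, against 17608, 16892 and 16586 reads in wildtype libraries, or 0.0987% to 0.11% of all reads. The sorted gate was checked with 9 genes of stem and progenitor cells, among them Kit, Ly6a (Sca-1) and Cd34, and none was at 0. These 9 genes summed to 24024, 30760 and 42685 normalized counts in Mirc11-/- libraries and to 36785, 36785 and 43303 in wildtype libraries, with 7 of 9 log2 fold changes below 0 and none called by limma. Transcripts of 12 erythroid genes summed to 32732, 30300 and 14397 normalized counts in Mirc11-/- libraries and to 19486, 15134 and 14166 in wildtype libraries, so Mirc11-/- libraries 1 and 2 stood above the rest in erythroid transcripts and below the rest in those of stem and progenitor cells. The part of these differences in the values below was not tested. In these bulk samples fewer cells of a type and less RNA per cell cannot be told apart.

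At least 1 read fell on 567 of the 1088 entries, at least 3 reads fell on 458, and reads in all 6 libraries were found for 267. No read was recorded for 521 entries. Precursors with reads numbered 377, 395 and 395 in Mirc11-/- libraries and 381, 411 and 427 in wildtype libraries. Testing required that the 6 libraries average 1 normalized count or more, a level reached by 370 entries (367 precursors and 3 host transcripts). Only 156 entries reached a mean of 10, and 22 reached 100.

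Where a hairpin lay in the annotation went with whether it was read. Hairpins were called exonic when at least 50% of their bases lay in an annotated exon. They were called at an exon edge when less than that overlapped an exon. Hairpins spanned by a gene were also placed there when an exon of any gene began or ended within 10 bases. Of 272 hairpins at an exon edge 86.0% had reads, as did 68.2% of 176 exonic hairpins, 40.0% of 412 intronic hairpins and 18.9% of 217 intergenic hairpins. The exon-edge and exonic groups held 60.6% and 34.7% of all precursor reads, against 3.64% for introns and 0.486% for intergenic hairpins. Positions could not be assigned for 7 precursors.

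**Figure D1:**
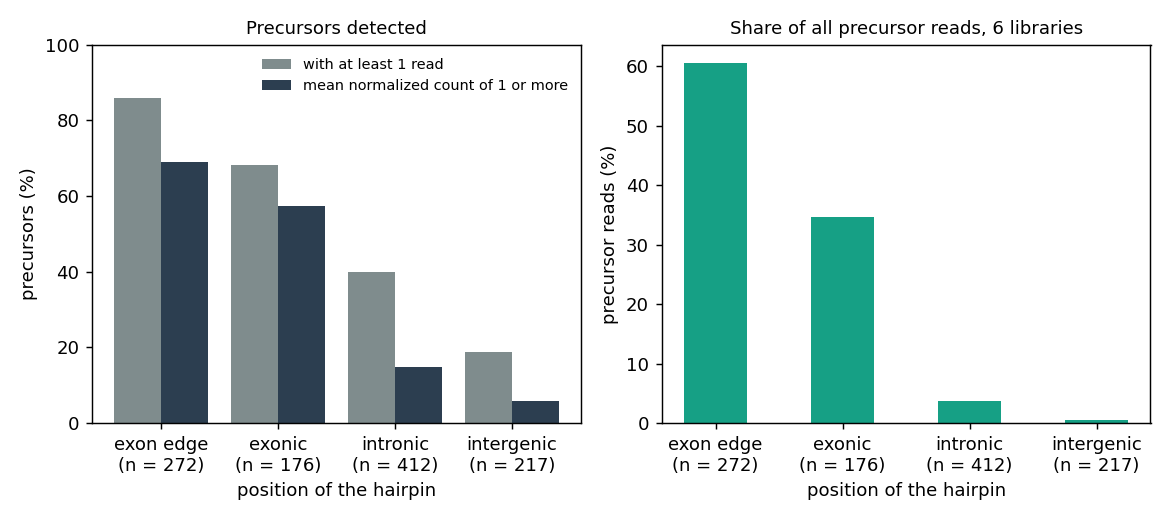
Detection of precursors by position of the hairpin. Bars give the percentage of precursors with a read and with a mean normalized count of 1 or more (left) and the percentage of all precursor reads over the 6 libraries (right), and exon-edge and exonic hairpins hold nearly all of the reads.

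A few hairpins at or in exons of abundant mRNAs held most of the reads. Mir5121, whose hairpin touches an exon of Rpl13a, which encodes a ribosomal protein, held 23.2% of all precursor reads alone, and the 10 highest precursors held 58.5%. It had 3932, 3860 and 4062 normalized counts in Mirc11-/- libraries and 4192, 3872 and 3293 in wildtype libraries, and the genotypes overlapped (log2 fold change 0.07, SE 0.10, adjusted p = 0.862, limma). Its value was 15.97% of that of Rpl13a itself. Per 100 bases of hairpin Mir5121 stood at 5228 normalized counts, Mir3064 at 2134 and Mir8094 at 988. The next entries were Mir3064 at the edge of a Ddx5 exon, Mir8094 in an exon of Ddx39b, Mir6418 at an exon edge of Gnb2, Mir3076 at an exon edge of Tkt and Mir686 in an exon of Psmb5. Mir1892 (in Sptssa), Mir546 (in Ctdsp2), Mir5114 (in Scd2) and Mir8114 (in Glul) followed, and Mir3082 lay antisense to an exon of Jmjd8. Reads on these entries cannot be told apart from reads of the mRNA that crosses the hairpin.

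No read of the Mirc11 cluster was found in any Mirc11-/- library, which checks the genotype labels. Mir23a had 0, 0 and 0 normalized counts in Mirc11-/- libraries, against 15.8, 15.9 and 19.3 in wildtype libraries. Its log2 fold change was -4.16 (SE 0.46, adjusted p = 0.0288, limma on log2(value + 1)), and it was the only one of the 370 tested entries to pass the test. For comparison, 0.0255% of all 15664 tested genes were called lower. With 0 reads in 1 group the size of the fitted change depends on the pseudocount, so bounds are given against a floor of 3 reads over the 3 Mirc11-/- libraries. On this floor Mir23a was at least 17.02-fold lower in Mirc11-/- cells.

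Mir27a had 0, 0 and 0 normalized counts in Mirc11-/- libraries, against 9.86, 15.9 and 28.4 in wildtype libraries, at least 18.1-fold lower. Mir24-2 had 0, 0 and 0 in Mirc11-/- libraries, against 7.89, 20.8 and 44.6 in wildtype libraries, at least 24.5-fold lower. Neither passed the limma test (adjusted p = 0.0832 and 0.185), although the genotypes did not overlap. The wildtype libraries differed 1 from another far more at Mir24-2 (24.4 ± 18.6, SD, n = 3) than at Mir23a (16.97 ± 1.98, SD, n = 3). Mir3074-2, annotated antisense within Mir24-2 at chr8:84208825-84208907, had 0, 0 and 0 in Mirc11-/- libraries and 3.94, 11.9 and 30.4 in wildtype libraries. Its reads may be those of Mir24-2, since strand was not recorded.

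The call depended on the test. DESeq2 on the recovered reads gave adjusted p = 8.6e-04 for Mir23a, 0.0011 for Mir27a, 5.2e-04 for Mir24-2 and 0.0071 for Mir3074-2, while edgeR gave 0.313, 0.337, 0.424 and 0.424 for these entries. Without 1 library the limma adjusted p of Mir23a lay between 0.0127 and 0.386, and the call was lost without Mirc11-/- library 2 (adjusted p = 0.177) and without wildtype library 1 (adjusted p = 0.117), 2 (adjusted p = 0.386) or 3 (adjusted p = 0.303). An exact permutation test over 3 against 3 libraries cannot give a two-sided p below 0.1, the value found for each of the 4 entries. The reads behind the values were 0 in Mirc11-/- libraries for each entry, against 51 for Mir23a, 54 for Mir27a, 73 for Mir24-2 and 46 for Mir3074-2 in wildtype libraries.

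**Figure D2:**
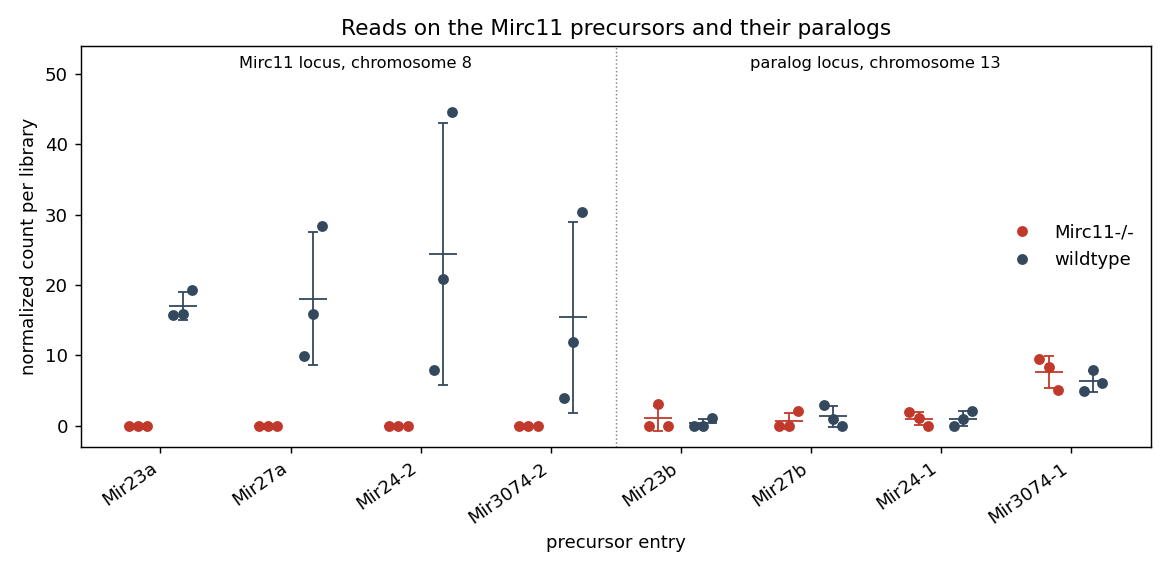
Normalized counts of the Mirc11 precursors and their paralogs, with 1 point per library and bars for mean and SD (n = 3). All Mirc11-/- points of the chromosome 8 locus sit at 0, and the paralogs stay low in both genotypes.

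The 3 paralog entries were nearly unread in both genotypes. Mir23b had 0, 3.12 and 0 normalized counts in Mirc11-/- libraries and 0, 0 and 1.01 in wildtype libraries. Mir27b had 0, 0 and 2.01 in Mirc11-/- libraries, against 2.96, 0.992 and 0 in wildtype libraries. Mir24-1 had 1.89, 1.04 and 0 in Mirc11-/- libraries and 0, 0.992 and 2.03 in wildtype libraries. These are 8 reads in Mirc11-/- libraries and 8 in wildtype libraries for the 3 entries together. Their means over the 6 libraries were 0.688 for Mir23b, 0.994 for Mir27b and 0.991 for Mir24-1, all under 1, so they were not tested in the main comparison.

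Summed over its 3 members the paralog cluster stood at 2.69 ± 1.27 normalized counts in Mirc11-/- libraries and 2.66 ± 0.59 in wildtype libraries (SD, n = 3 each), a difference smaller than the spread. The differences on the log2(value + 1) scale were 0.34 (SE 0.76) for Mir23b, -0.46 (SE 0.78) for Mir27b and -0.01 (SE 0.65) for Mir24-1. With no filter on low values the limma adjusted p was 0.889, 0.843 and 0.999. These errors leave room for changes of more than 1 log2 unit in either direction for each of them, so no change was detectable at this depth, and an equal level is not shown. Mir3074-1, antisense over Mir24-1 within Fancc, had 9.46, 8.31 and 5.03 in Mirc11-/- libraries and 4.93, 7.94 and 6.08 in wildtype libraries (log2 fold change 0.22, SE 0.43, adjusted p = 0.913). It had 42 reads over the 6 libraries, against 6 on Mir24-1, whose 68 bases it covers in full. Its reads may include those of Mir24-1, since strand was not recorded, so the sums above can miss reads of this paralog. The host 2010111I01Rik, which spans the 3 paralogs, had 773, 730 and 721 in Mirc11-/- libraries and 706, 832 and 795 in wildtype libraries.

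In wildtype cells the 3 Mirc11 members summed to 59.4 ± 29.9 normalized counts and the 3 paralogs to 2.66 ± 0.59 (SD, n = 3 each). Per 100 bases of hairpin these sums were 22.1 and 1.24 normalized counts. Neither sum includes the antisense entry of its cluster. The paralogs lie in an intron of 2010111I01Rik, at 0.0906% to 0.131% of its value, while Mir23a and Mir27a are intergenic. These values therefore do not compare transcription of the loci, and the part of hairpin position in the difference was not tested. Among 1084 precursors ranked by their wildtype mean, Mir24-2 was number 83, Mir27a number 107 and Mir23a number 113, while Mir27b was number 365, Mir24-1 number 374 and Mir23b number 448. Mir27a, Mir23a and Mir3074-2 held the first 3 places among the intergenic hairpins, above Mir221 with 11.3 normalized counts in wildtype libraries. Only the last bases of Mir24-2 overlap an exon of the noncoding gene Gm26532, which placed it in the exon-edge group.

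Across the other precursors higher and lower values were about equally frequent. The median log2 fold change over the 362 other precursors tested was 0.0036, with 185 above 0 and 177 below, beside a median of 0.0025 over all 15664 tested genes. Setting the 2 precursors with no reads in 1 genotype to their bound left the median at 0.0036. No other entry passed limma, which called none of the 370 higher, beside 0.00638% of all tested genes. Before adjustment, 16 of the 370 (4.32%) reached a limma p under 0.05 with a lower value, beside 4.09% of all tested genes, and 5 (1.35%) did so with a higher value, beside 4.15%. With edgeR no entry was called lower, beside 0.0192% of all tested genes, or higher, beside 0.00638%. The unadjusted edgeR p was under 0.05 for 16 lower entries and 6 higher ones. These are 22 of 370 entries, beside 1357 of all 15664 tested genes in both directions together. DESeq2 called 6 of 190 entries lower, beside 0.643% of all genes with an adjusted p, and none higher, beside 0.281%. Those 6 were the 4 entries of the Mirc11 locus, Mir3064 and Mir6935.

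Among tested entries without overlap between the genotypes, lower values were more frequent than higher ones. Of the 370 tested entries, 32 (8.65%) were lower in all Mirc11-/- libraries than in all wildtype libraries, beside 6.53% of all tested genes. Another 13 (3.51%) were higher in all of them, beside 6.42% of all tested genes. The 4 entries of the deleted Mirc11 locus are among the 32. Of the 362 other precursors tested, 27 were lower without overlap and 13 were higher. Whether these shares differ from those of all genes was not tested. The spread of the changes narrowed with level, and the interquartile range of the log2 fold changes ran from -0.45 to 0.53 for means of 1 to 5 and from -0.19 to 0.24 for means of 20 to 100.

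**Figure D3:**
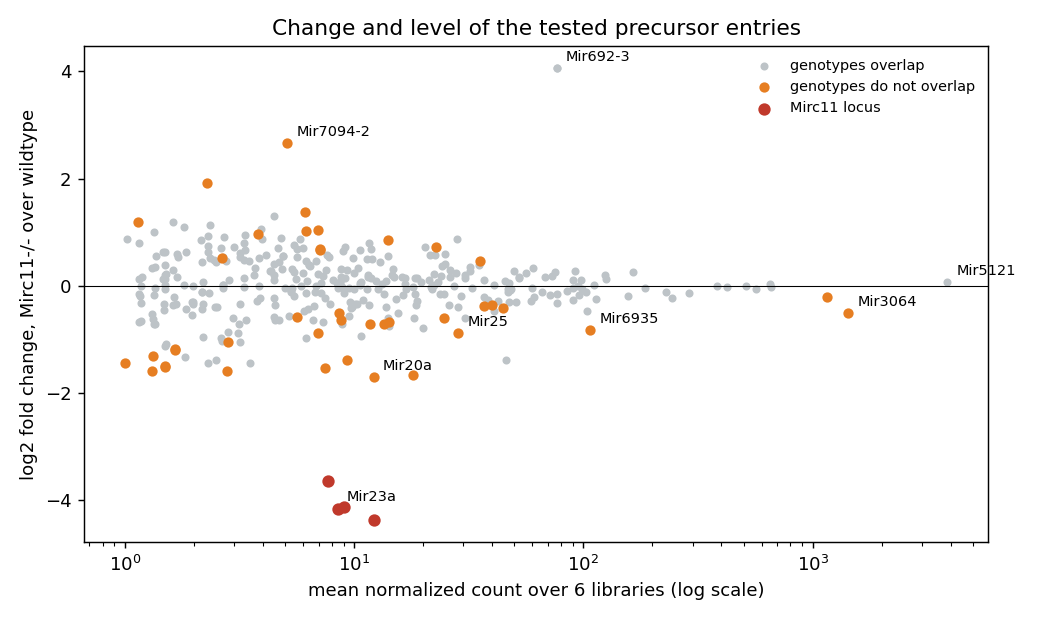
Log2 fold change (Mirc11-/- over wildtype) of the 370 tested entries against their mean normalized count. The 4 entries of the Mirc11 locus stand apart below -3.6, and most other entries lie within 1 log2 unit of 0.

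Mir3064 and Mir6935 were the abundant entries with the clearest separation. Mir3064 (chr11:106782693-106782759) had 1024, 1167 and 1339 normalized counts in Mirc11-/- libraries, against 1513, 1632 and 1905 in wildtype libraries. Its log2 fold change was -0.52 (SE 0.12, adjusted p = 0.419 in limma, 0.0411 in DESeq2). Its host Ddx5, an RNA helicase that works with Drosha, had 23451, 28421 and 31376 in Mirc11-/- libraries and 35669, 38753 and 42045 in wildtype libraries (log2 fold change -0.49, SE 0.12, adjusted p = 0.426 in limma, 0.0329 in DESeq2). The entry and its host thus differed by nearly the same amount.

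Mir6935 (chr11:120347350-120347413), at an exon edge of Actg1, which encodes gamma-actin, had 84.2, 60.2 and 88.5 in Mirc11-/- libraries, against 136, 140 and 134 in wildtype libraries. Its log2 fold change was -0.83 (SE 0.20, adjusted p = 0.419 in limma, 0.0492 in DESeq2), while that of Actg1 was -0.22 (SE 0.08, adjusted p = 0.524 in limma). Mir8094 had 1078, 1034 and 1104 in Mirc11-/- libraries and 1256, 1236 and 1225 in wildtype libraries (log2 fold change -0.21, SE 0.08, adjusted p = 0.534), without overlap.

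The precursors of the miR-17 polycistron, a cluster known to promote cell proliferation and survival, had lower means in Mirc11-/- libraries at each of its 6 hairpins, but none passed the test. All 6 lie in exons of Mir17hg on chromosome 14. Mir20a (chr14:115044157-115044263) had 1.89, 5.19 and 10.1 in Mirc11-/- libraries, against 17.8, 12.9 and 25.3 in wildtype libraries, without overlap (log2 fold change -1.70, SE 0.54, adjusted p = 0.488). The fitted log2 fold changes of the others were -1.45 for Mir17, -0.98 for Mir18, -0.76 for Mir92-1, -0.61 for Mir19b-1 and -0.48 for Mir19a (limma adjusted p = 0.618 to 0.81), and the genotypes overlapped at each. Summed over the 6 hairpins, a sum formed after the values were seen, the values were 20.8, 34.3 and 57.4 in Mirc11-/- libraries and 61.1, 57.6 and 105 in wildtype libraries.

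The host transcript did not share this difference. Mir17hg had 384, 446 and 426 normalized counts in Mirc11-/- libraries and 372, 425 and 490 in wildtype libraries (log2 fold change -0.03, SE 0.13, adjusted p = 0.97). Whether the 6 hairpins differed from their host was not tested. The Mirc11-/- library with the lowest sum, number 1, also had the highest sum of erythroid transcripts. Number 3, with the highest hairpin sum among Mirc11-/- libraries, had erythroid transcripts at the wildtype level. The part of erythroid transcripts in these sums was not tested.

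A second polycistron, which shares the seeds AAAGUGC and AUUGCAC with the first, showed the same order of means. Mir106b, Mir93 and Mir25 lie together in an intron of Mcm7, a subunit of the replicative helicase. Mir25 (chr5:138165321-138165404) had 16.1, 23.9 and 19.1 in Mirc11-/- libraries, against 36.5, 42.7 and 32.4 in wildtype libraries (log2 fold change -0.89, SE 0.29, adjusted p = 0.49). Mir93 had 5.67, 4.15 and 4.02 in Mirc11-/- libraries, against 10.8, 8.93 and 8.11 in wildtype libraries (log2 fold change -0.88, SE 0.40, adjusted p = 0.601). Neither overlapped between the genotypes.

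Mir106b had 0.946, 1.04 and 0 in Mirc11-/- libraries and 6.9, 3.97 and 1.01 in wildtype libraries, with overlap (log2 fold change -1.44, SE 0.69, adjusted p = 0.614). Mcm7 itself had 7836, 7121 and 6722 in Mirc11-/- libraries and 8320, 7706 and 6384 in wildtype libraries (log2 fold change -0.04, SE 0.11, adjusted p = 0.939). The 3 hairpins, also summed after the values were seen, came to 22.7, 29.1 and 23.1 in Mirc11-/- libraries. In wildtype libraries they came to 54.2, 55.6 and 41.5. The sum of Mirc11-/- library 3, whose erythroid sum was at the wildtype level, lay between those of the other Mirc11-/- libraries. The part of erythroid transcripts was not tested here either. Of the 7 precursors whose strands carry the seed AAAGUGC, 4 had reads, namely Mir17, Mir20a, Mir93 and Mir106b. Their 38 reads in Mirc11-/- libraries and 112 in wildtype libraries are those behind the values above and not a further result.

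**Figure D4:**
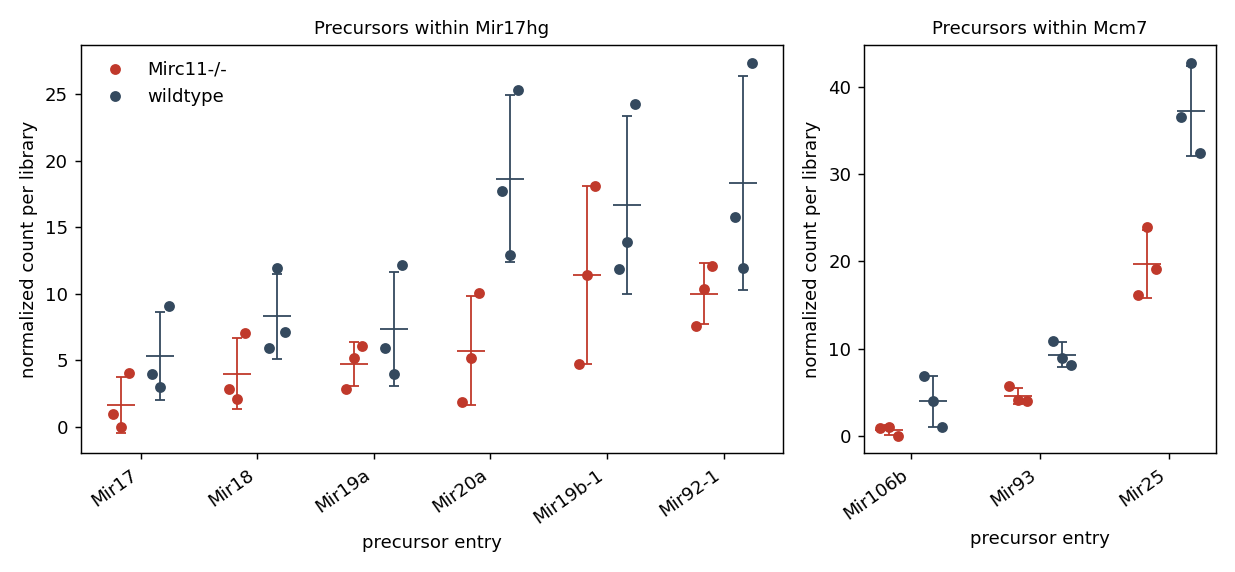
Normalized counts of the hairpins in Mir17hg and in Mcm7, with 1 point per library and bars for mean and SD (n = 3). Mirc11-/- means lie below wildtype means at all 9 hairpins, and the points do not overlap at Mir20a, Mir93 and Mir25.

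The other precursors with the largest separated changes were mostly read a few times per library, and none of the 9 passed limma or edgeR. DESeq2 gave no adjusted p for 7 of the 9 and called neither Mir1894 nor Mir147. Among those lower, Mir1894 in an intron of Ppp1r10 had 8.51, 4.15 and 9.06 in Mirc11-/- libraries, against 28.6, 47.6 and 10.1 in wildtype libraries. Mir147 had 2.84, 3.12 and 4.02 in Mirc11-/- libraries, against 8.88, 10.9 and 15.2 in wildtype libraries (log2 fold change -1.53, SE 0.42, adjusted p = 0.441), and its host AA467197 had a log2 fold change of -0.83 (SE 0.42). Mir5119 in Cdk12 had 3 reads in Mirc11-/- libraries and 14 in wildtype libraries, and Mir7655 in Mllt10 had 0 and 8.

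Among those higher, Mir7094-2, which lies in the immunoglobulin heavy chain locus, had 10.4, 6.23 and 11.1 in Mirc11-/- libraries and 2.96, 0 and 0 in wildtype libraries (log2 fold change 2.66, SE 0.66, adjusted p = 0.419). Mir1949 had 10.4, 10.4 and 7.04 in Mirc11-/- libraries and 3.94, 2.98 and 2.03 in wildtype libraries. Mir6951 at an exon edge of Azin1 had 8.51, 11.4 and 9.06 in Mirc11-/- libraries and 5.92, 3.97 and 3.04 in wildtype libraries, and Azin1 had a log2 fold change of 0.02. Mir6993 in Fads1 had 13 reads in Mirc11-/- libraries and 1 in wildtype libraries, and Mir7085 in Slc37a4 had 6 and 1. B cell transcripts summed to 68.1, 133 and 201 in Mirc11-/- libraries and to 86.8, 73.4 and 87.1 in wildtype libraries, and their part in the value of Mir7094-2 was not tested.

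Of the 80 entries in the table that belong to a list of blood cell miRNAs and the let-7 family, 54 had reads and 27 reached the level for testing. None was called by limma or edgeR, nor by DESeq2, which gave an adjusted p for 11 of the 27 only. An unadjusted limma p under 0.05 was found for 3 lower entries, beside 4.09% of all tested genes, and for 0 higher ones, beside 4.15%. Of the 27, 20 had a log2 fold change below 0 and 7 above, with a median of -0.69, beside 0.0025 over all tested genes, and 9 of the 27 are hairpins of the 2 polycistrons above. The genotypes did not overlap at 5 lower entries (Mir20a, Mir25, Mir93, Mir191 and Mirlet7bhg), beside 6.53% of all tested genes, and at 2 higher ones (Mir21a and Mir425), beside 6.42%.

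Mir142, made throughout the blood lineages, had 48.2, 47.8 and 61.4 in Mirc11-/- libraries and 52.3, 59.5 and 84.1 in wildtype libraries. Mir223, a miRNA of granulocytes and their precursors, had 30.3, 33.2 and 23.1 in Mirc11-/- libraries and 28.6, 24.8 and 17.2 in wildtype libraries. Both overlapped between the genotypes (log2 fold changes -0.29, SE 0.25, and 0.30, SE 0.31). Mir196b, in a Hoxa9 intron, had 1.89, 8.31 and 14.1 in Mirc11-/- libraries and 15.8, 12.9 and 11.1 in wildtype libraries. Mir221, known as a brake on Kit expression, had 2.84, 7.27 and 9.06 in Mirc11-/- libraries and 11.8, 4.96 and 17.2 in wildtype libraries. In both, Mirc11-/- library 1 was the lowest of the 6.

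Mir21a, in an exon of Vmp1, had 5.67, 12.5 and 8.05 in Mirc11-/- libraries, against 2.96, 2.98 and 5.07 in wildtype libraries (log2 fold change 1.03, SE 0.47, adjusted p = 0.6). Mir425 had 9.46, 10.4 and 7.04 in Mirc11-/- libraries, against 6.9, 3.97 and 5.07 in wildtype libraries, while its neighbour Mir191 in the same host gene had 0, 0 and 0 in Mirc11-/- libraries and 0.986, 0.992 and 4.05 in wildtype libraries. Mir150, a lymphocyte miRNA, had 0.946, 0 and 2.01 in Mirc11-/- libraries and 1.97, 5.95 and 4.05 in wildtype libraries.

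Precursors of many well-known blood miRNAs had few or no reads in these libraries. Mir146, the precursor of miR-146a, had 1 read, in Mirc11-/- library 1, and no other library had any. Mir155, Mir146b, Mir125a, Mir125b-1, Mir125b-2, Mir10b, Mir130a, Mir181a-1, Mir181a-2 and Mir99b had no read, and 16 further entries of the list were also at 0. The erythroid precursors Mir144, Mir451a and Mir486 had 3, 2 and 6 reads over the 6 libraries, although Ank1, the host of Mir486 and an erythroid membrane gene, had 3189, 2588 and 929 normalized counts in Mirc11-/- libraries and 1378, 1039 and 757 in wildtype libraries. Because the libraries were made from polyadenylated RNA, a precursor at or near 0 here gives no measure of its mature miRNA.

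The let-7 family was as thinly read. Mirlet7d was the only let-7 hairpin to reach a mean of 1, with 2 reads in Mirc11-/- libraries and 7 in wildtype libraries. The host transcript Mirlet7bhg had 3.78, 2.08 and 10.1 in Mirc11-/- libraries, against 12.8, 14.9 and 12.2 in wildtype libraries, without overlap (log2 fold change -1.38, SE 0.52, adjusted p = 0.546). Of the processing and silencing factors, Drosha, Dgcr8 and Dicer1 had log2 fold changes of -0.01 (SE 0.08), -0.07 (SE 0.11) and 0.09 (SE 0.08). None of the 23 tested members of that list was called by limma or edgeR. An unadjusted limma p under 0.05 was found for 1 lower and 1 higher member, beside 4.09% and 4.15% of all tested genes, and DESeq2 called Ddx5 alone, lower, beside 0.643% of all genes with an adjusted p.

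Changes of precursors followed those of their hosts most where the hairpin was exonic. Across 88 exonic precursors with a tested host, Pearson's r between the log2 fold changes of precursor and host was 0.50 (Spearman's rho 0.48). It was 0.28 (rho 0.30) across 186 exon-edge precursors and 0.17 (rho 0.12) across 54 intronic ones. Read level also differed between these groups. Among the tested precursors of these groups, a mean of 10 or more was most frequent for exonic hairpins and least frequent for intronic ones. Across precursors with such a mean, whatever their position, r was 0.46 (rho 0.44), against 0.31 (rho 0.30) across all 328 pairs. The part of read level in the ranking by position was not tested. These correlations are descriptions across genes, which are not independent replicates. Precursor and host share their 6 libraries and can share reads. The median precursor value was 3.83% of its host's value for exonic, 0.494% for exon-edge and 0.259% for intronic hairpins.

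**Figure D5:**
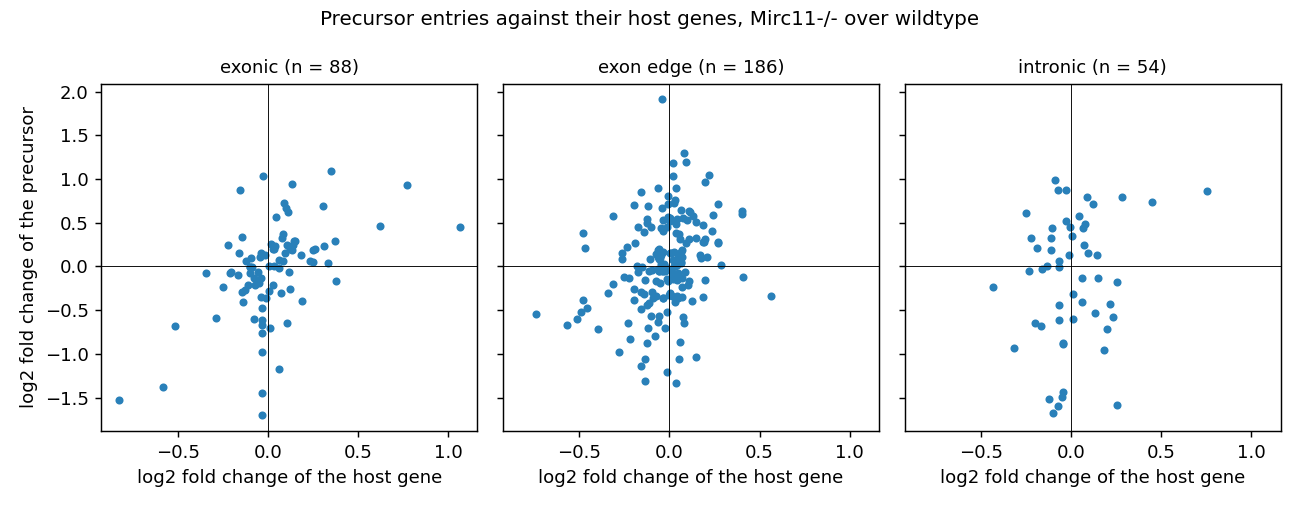
Log2 fold change (Mirc11-/- over wildtype) of tested precursors against that of their host genes, for exonic, exon-edge and intronic hairpins. Hosts spread little (SD 0.20 over all 328 pairs), precursors more (SD 0.57), and the exonic panel shows the closest relation (r 0.50).

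Overlapping and repeated entries limit single values. Of 23 pairs of precursors that overlap on opposite strands, 10 had reads, 8 of these differed in length, and the longer entry had more reads in 8 of 8. Mir142b, antisense over Mir142, had 684 reads and Mir142 had 354, a pattern that unstranded counting cannot resolve. Mir692-2b and Mir692-3 had identical values in every library, 0, 302 and 149 in Mirc11-/- libraries and 8.88, 0 and 0 in wildtype libraries, the largest fitted rise of any entry (log2 fold change 4.06) but with overlap between the genotypes. Mir7676-1 and Mir7676-2, Mir8099-1 and Mir8099-2, and Mir1906-1 and Mir1906-2 also had identical values, so these copies are uncertain.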

How the data were processed

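RNA of sorted LSK cells (3 Mirc11-/- and 3 wildtype libraries) was measured by paired-end RNA sequencing after poly(A) selection. STAR, Cufflinks and the build mm10 are named in the submitters' processing notes, and DE-seq in the study's methods. The supplementary methods name the human build hg19 for the STAR alignment instead, while the table holds mouse gene symbols. Neither the annotation nor the counting method is stated in these sources. The authors' deposited values are a signal per gene, read counts divided by a size factor per library and not by gene length. Whole reads were recovered from the steps between values, within 0.02 reads for 100.0% of values. The members and gene lists were chosen with earlier results of these data known.

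Genes with a mean value of at least 1 over 6 libraries were tested with limma 3.58.1 (R 4.3.3) on log2(value + 1) with a mean trend, with Benjamini-Hochberg adjustment over 15664 genes at 0.05. edgeR 4.0.16 and DESeq2 1.42.0 on recovered reads, other pseudocounts, filters and scalings, a replicate block, and leaving out each library were alternatives. The limma fit was tested on simulated data. p-values measure the spread between RNA preparations of pooled mice, and all 6 libraries carry 1 batch label. Bounds and floors cover counting error only.

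Hairpins were placed with RefSeq GRCm38.p6 (907) or GENCODE M21 (170), and hosts and exons were taken from GENCODE M21. RefSeq held a hairpin sequence for 907 members and a mature sequence for 951. Members named are both clusters with their antisense entries, the 12 others with the highest mean, those called by limma, edgeR or DESeq2, the 5 largest separated changes in each direction, and blood cell and let-7 entries with reads.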

Additional observations from a re-analysis of the deposited data

How the results depend on the processing

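The number of entries with reads, 567, was 267 when reads in all 6 libraries were required. The number of precursor entries called lower was 1, and it was 0 with a pseudocount of 0.1, a filter of 5 or edgeR, 2 without a filter and 6 with DESeq2. Leaving out 1 library gave 0 to 5 such entries (5 without Mirc11-/- library 3) and 1 to 430 genes called in all (430 without Mirc11-/- library 3), beside 5 in the main comparison and 125 with DESeq2. No alternative called a precursor higher. For Mir23a the call was lost with a pseudocount of 0.1 (log2 fold change -7.41, adjusted p = 0.13), a filter of 5 (-4.16, adjusted p = 0.0576) and edgeR (-7.10, adjusted p = 0.313), and leaving out 1 library gave -4.21 to -4.07. Mir27a was called without a filter (-4.13, adjusted p = 0.035) and by DESeq2 (-6.62), and leaving out 1 library gave -4.48 to -3.76. Mir24-2 was called by DESeq2 (-7.06), and leaving out 1 library gave -4.98 to -3.80. Mir27a and Mir24-2 were also called without Mirc11-/- library 3 (adjusted p = 0.0156 and 0.0197). The direction changed for Mir17hg without Mirc11-/- library 1 (0.03) or wildtype library 3 (range -0.13 to 0.071), and for Mir5121 without wildtype library 3 (range -0.028 to 0.15). The causes were not tested. Of the 32 further tested entries followed through the alternatives these 2 alone changed direction, and Mir3064, Mir6935 and Mir3074-2 alone gained a call in any. Some tested entries named above were not followed, among them Mir1892 and Mir546 (log2 fold change -0.01 for each), whose direction could also change. The paralogs, read too rarely for a test, ranged from -0.34 to 0.68 (Mir23b), -0.99 to 0.03 (Mir27b) and -0.44 to 0.42 (Mir24-1) with 1 library left out.

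Deviations of libraries with the same number were weakly correlated (0.066, -0.063 and 0.097), which cannot show whether the numbers pair the samples. With a replicate block limma called 30 genes, beside 5 without it. An unadjusted limma p under 0.05 was found for 1916 genes with the block and for 1290 without. Of the 30, 3 were precursor entries (Mir23a, Mir27a with a log2 fold change of -4.13 and adjusted p = 0.0484, and Mir3064 with adjusted p = 0.0467). Depth limits the paralog cluster, with 8 reads over its 3 members in Mirc11-/- libraries and 8 in wildtype libraries.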
